A study of Saccharomyces cerevisiae with 26 samples.

Results

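Cells held in alginate beads were compared at the last sampling times of a 17-day run, with 3 arrays of day 17 set against 3 arrays of day 10. These are 6 of the 26 Affymetrix yeast arrays of the study, chosen by their titles alone. The yeast is Saccharomyces cerevisiae, here haploid S288C of Mat-alpha type, and the labels name no mutation or drug in either arm. Both arms were grown alike: the cells sat in 3 mm beads of calcium alginate, a gel that keeps the cells in place while medium flows past. Beads filled 100 mL of a 300 mL reactor, which received synthetic defined medium with 100 g/L glucose at 6 L/h, at pH 5.5 and 32.5 °C. The medium was renewed whenever its glucose dropped under 1%. RNA was taken from the beads with a bead-specific method. The remaining 20 arrays are of beads at days 1, 3 and 5, of cells at day 0, and of free cells in log phase, stationary phase and a chemostat. No label ties the arrays of a day to separate reactors. The p-values rest on the spread between arrays of a group, pooled over all 9 groups, which may be technical.

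Yeast cells enclosed in a gel and fed with sugar go on fermenting but divide little, which makes them a model for ageing without starvation. In growing yeast, ribosomal protein genes are among the most heavily transcribed and follow the growth rate. A daughter cell is cut off from its mother by enzymes that degrade the wall between them. Meiosis normally starts only in starved diploid cells, through the regulator IME1, and haploid cells repress it.

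Each value below is log2 of the deposited ratio, in which a probe set's signal is set against its own median over the 26 arrays, so that 0 is the middle of the series and levels of different genes cannot be set against each other. A change is the day 17 mean minus the day 10 mean. It was tested with limma over 5445 genes. A call needed a change of at least 2-fold and a p that stayed under 0.05 after Benjamini-Hochberg adjustment. Of these genes 276 were called (5.07%), with 190 higher at day 17 (3.49%) and 86 lower (1.58%). The median change was 1.34 on the log2 scale, without sign, among called genes and 0.03 over all genes. The 3 arrays of day 17 lay above the 3 of day 10 in 1182 genes (21.7%) and below them in 1030 (18.9%), so that the days did not overlap in 2212 (40.6%). Which arrays are included weighs heavily on the number of calls: without day 10 replicate 2 there were 8, without day 17 replicate 3 there were also 8, without day 10 replicate 3 there were 66, without day 17 replicate 2 there were 153 and without day 10 replicate 1 there were 523. Quantile normalization repeated over the tested genes left 28 calls, and a fit on the 18 arrays of days 1 to 17 left 31. Without day 10 replicate 2, 209 of the 276 genes still differed at least 2-fold. The number was 226 without day 17 replicate 3 and 224 after quantile normalization. The median changes of the 276 were 1.17, 1.25 and 1.26 in the same order. These genes were chosen for a 2-fold change on the same arrays, so keeping it is in part a matter of choice. IME1, ACS2, DSE4, ERG2, PAU8 and PAU9 were the 6 genes called under each of 16 alternative settings, or of the 15 that gave a value for PAU8 and PAU9, subsets by the dap spike described at the end not counted.

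**Figure D1:**
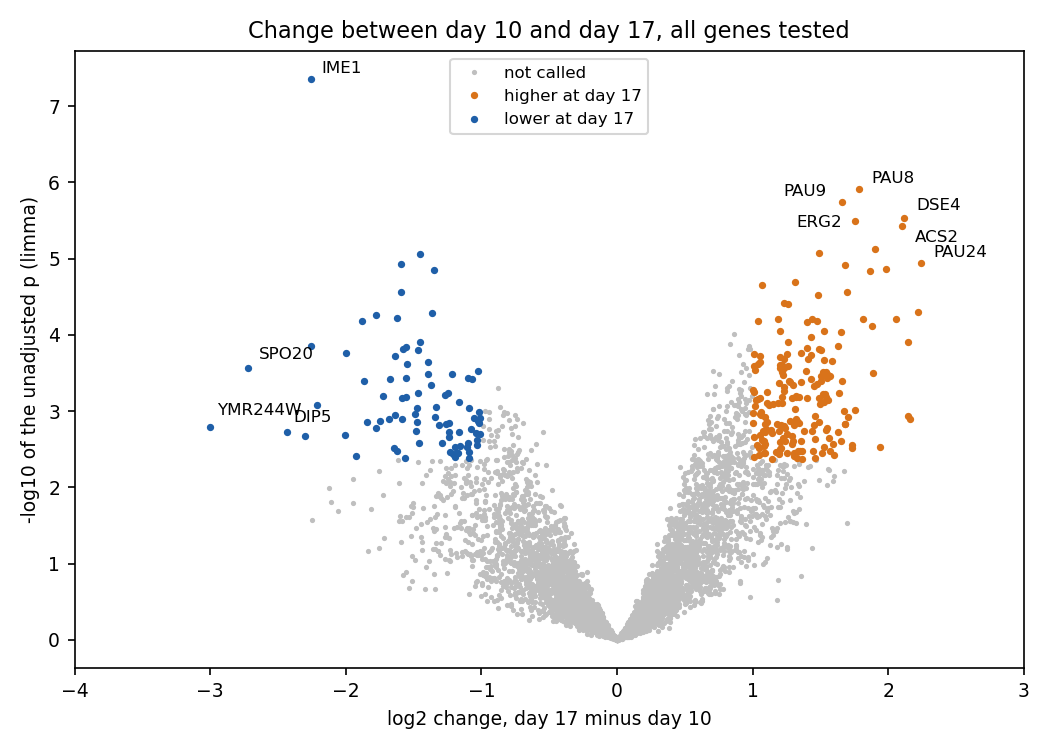
Change of each of the 5445 genes (x axis, log2, day 17 minus day 10) against -log10 of the unadjusted limma p (y axis). Orange points are the 190 genes called higher at day 17, blue points the 86 called lower and grey points the rest; IME1 stands alone at the top left.

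The arrays of the days differ as a whole in how far they lie from the earlier beads. The root mean square distance over all genes from the mean of days 1, 3 and 5 was 0.63, 0.95 and 0.92 on the log2 scale for the day 10 arrays and 0.44, 0.47 and 0.47 for those of day 17. Single arrays of days 1, 3 and 5, each left out of the mean it was set against, lay between 0.36 and 0.84. All 3 day 17 arrays were nearer to the early beads than any day 10 array, and day 10 replicate 1 was the nearest of its day. Its root mean square difference from day 10 replicates 2 and 3 was 0.45 and 0.53, and that from day 17 replicates 1, 2 and 3 was 0.50, 0.50 and 0.64.

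**Figure D2:**
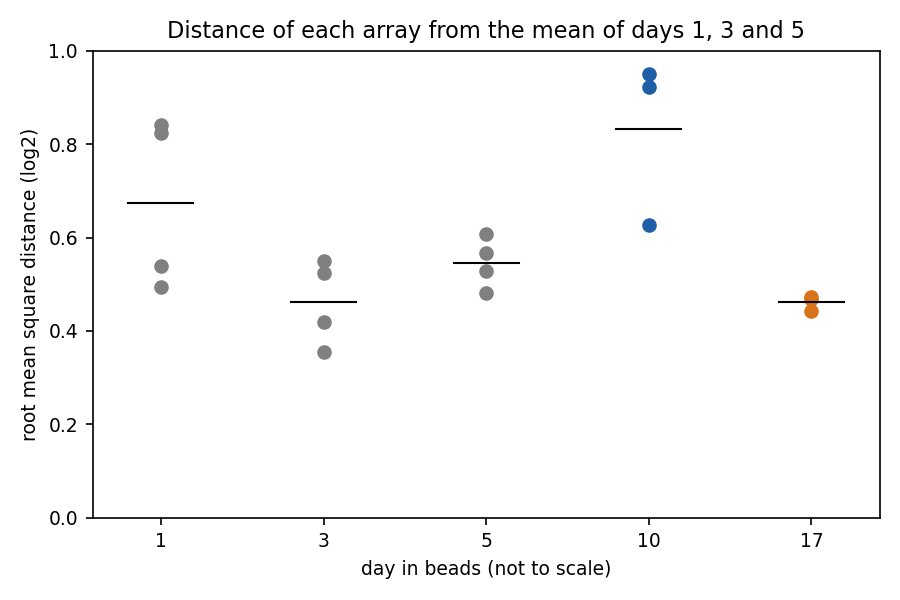
Root mean square distance over 5445 genes (y axis, log2) of each array from the mean of days 1, 3 and 5, by day in beads (x axis, not to scale). Points are arrays and lines are means of a day; the day 17 arrays sit between 0.44 and 0.47, below all day 10 arrays.

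Set against the early beads, the same 5445 genes gave 463 calls higher (8.50%) and 527 lower (9.68%) at day 10 than over days 1, 3 and 5. At day 17 limma called 0 genes in either direction against those days, with 538 at an unadjusted p under 0.05 and a lowest adjusted p of 0.21. The comparisons share the arrays of day 10, of day 17 or of the early days, so their values are given side by side and their overlap is not a result. The 190 genes higher at day 17 had median levels of 0.33, 0.09 and -0.02 at days 1, 3 and 5, of -1.33 at day 10 and of -0.03 at day 17. For the 86 lower genes the medians were -0.37, -0.06 and 0.11, then 1.41 at day 10 and -0.03 at day 17. Day 10 was the lowest of the 5 bead days in 189 of the 190 and the highest in all 86 of the others, while over all genes tested it was the lowest in 2147 and the highest in 2031. These genes were chosen for their difference from day 10, so its place at the edge is in part a matter of choice.

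Among cell wall genes the seripauperins stood out by the number called. The PAU genes encode small serine-poor mannoproteins of the cell wall and are known to be induced without oxygen. Of 13 measured, 8 were higher at day 17 (61.5%, against 3.49% of all genes) and 0 lower, with a median change of 1.48. PAU24 (YBR301W) read -1.03, -1.33 and -1.26 on the day 10 arrays and 0.92, 0.90 and 1.27 on those of day 17. It rose by 2.24 ± 0.39 (SE of the limma fit, with the spread shared by all 9 groups), or 4.72-fold, with limma adjusted p = 0.0053. All its day 10 arrays lay below the middle of the series and all its day 17 arrays above.

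PAU3 (YCR104W) went from -0.27, -0.25 and -0.78 to 1.99, 1.37 and 1.51, a change of 2.06 with limma adjusted p = 0.011. PAU14 (YIL176C) stood at -0.89, -0.89 and -1.31 and then at 1.00, 0.53 and 1.10, 1.90 apart with limma adjusted p = 0.0052. PAU8 gave -0.94, -0.95 and -0.87 at day 10 and 0.82, 0.60 and 1.18 at day 17, which is a change of 1.79 with limma adjusted p = 0.0033. No array of the later day reached down to one of the earlier day in these genes. PAU3 and PAU14 belong to the largest rises, which were picked among genes with arrays apart, while PAU8 does not. PAU9, PAU17, PAU4 and PAU18 rose by 1.66, 1.68, 1.48 and 1.26.

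The family did not move as a block. PAU5 changed by 0.00 and PAU7 by 0.17, with limma adjusted p = 1.00 and 0.67, and their arrays of the days overlapped. PAU21 read 0.57, 1.94 and 2.02 at day 10 and 0.11, 0.28 and 0.65 at day 17, a change of -1.16 that was not called at limma adjusted p = 0.11. PAU2 and PAU23 stood 0.77 and 0.99 higher without a call. Of the 13 probe sets, 12 carry the suffix by which Affymetrix marks probes that may bind several transcripts, all 8 called ones among them, so signal of near-identical members cannot be separated. The median level of the family was -3.01 in log phase and -3.18 in stationary phase, against -0.53 at day 10 and 0.67 at day 17. PAU23, the 1 member with an unambiguous probe set, followed this in stationary phase only. Its means were -1.92 in stationary phase, -0.18 in log phase and -0.12 in the chemostat, against -0.32 at day 10 and 0.68 at day 17. Without day 17 replicate 3 the count of called members was 2, without day 10 replicate 2 it was 4, and with quantile normalization it stayed at 8.

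**Figure D3:**
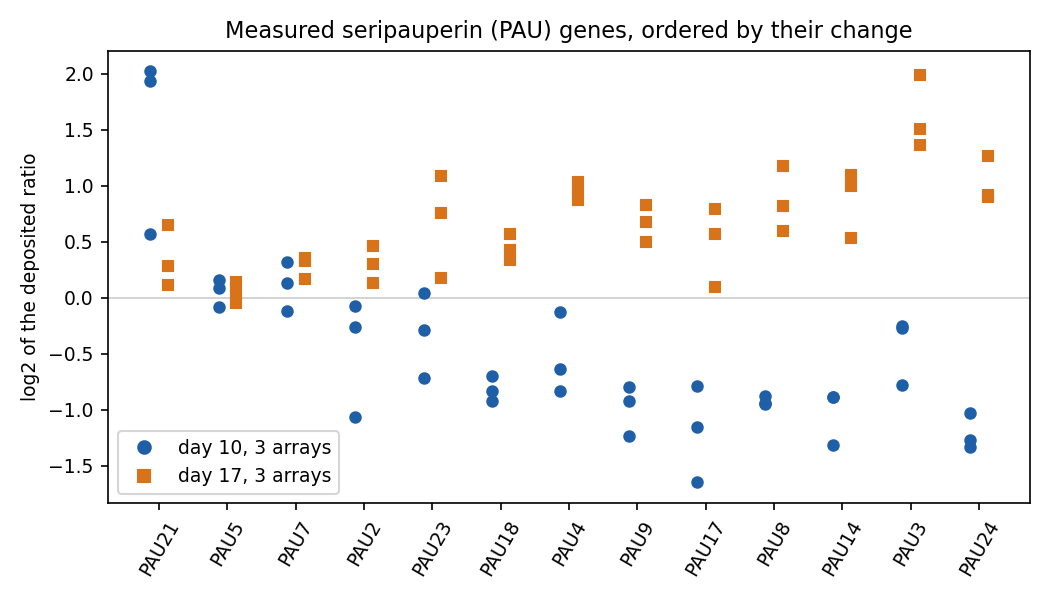
Log2 of the deposited ratio (y axis) of each measured PAU gene (x axis, ordered by change) on the 3 arrays of day 10 (blue circles) and of day 17 (orange squares). The days are apart in 10 genes with the later one above, and they overlap in PAU5, PAU7 and PAU21.

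Other genes known from cells without oxygen moved less as a group. Of 9 TIR and DAN mannoproteins 2 were higher (22.2%, against 3.49% of all genes), PAU24 counted again here. DAN4, a mannoprotein of the anaerobic cell wall, rose by 1.40 with limma adjusted p = 0.011, and TIR3 differed by 0.21 and TIR2 by 0.54 without a call. Of 33 further anaerobic and hypoxic genes 3 were higher (9.09%). ANB1, the anaerobic form of translation factor eIF5A, rose by 1.67. SCM4 rose by 1.48 and EUG1, a disulfide isomerase of the endoplasmic reticulum, by 1.43. ROX1, the repressor of anaerobic genes, differed by -1.60 with limma adjusted p = 0.12 and no call.

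Genes that cut the daughter cell from its mother were higher at day 17 in 7 of 14 measured cases, with 0 lower, against 3.49% of all genes. The median change of the list was 0.91, and the list's median level ran from -1.16 to -0.78 over the day 10 arrays and from -0.14 to 0.31 over those of day 17. DSE4 (YNR067C), a glucanase of the daughter wall, read -1.69, -2.09 and -2.02 at day 10. At day 17 its arrays read 0.60, -0.14 and 0.08. Its change of 2.12 ± 0.34 (SE), or 4.33-fold, had limma adjusted p = 0.0034.

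DSE1 (YER124C), a daughter-specific protein, stood at -1.80, -2.92 and -2.39 and later at 0.02, -0.40 and -0.25, a rise of 2.16 with limma adjusted p = 0.030. SCW11, a glucanase-like wall protein, rose by 1.63, and DSE2, SUN4 and EGT2, which also act at separation, rose by 1.52, 1.49 and 1.30. CTS1, the chitinase that digests the septum, went from -0.68, -1.29 and -1.21 to 0.22, -0.17 and -0.11, with a rise of 1.04 and limma adjusted p = 0.011. In each of the 7 genes the arrays of the days were apart, as they were in 189 of the 190 genes called higher. Day 5 means of DSE4 and EGT2 were 0.50 and 0.45, so day 10 was their lowest bead day. The list had 1 call without day 10 replicate 2, 1 without day 17 replicate 3 and 1 after quantile normalization.

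The cyclins listed here were not called. The G1 cyclins CLN2 and CLN3 differed by 0.39 and 0.15, the mitotic cyclin CLB2 by 0.76 and SIC1, an inhibitor of the cyclin-dependent kinase, by 0.30, with 0 of them called. Of the 48 listed genes of G2 and M phase 0 were called. Of the 66 of G1 and S phase 1 was called, RAD27, a nuclease of DNA replication, which fell by 1.35, and of 10 histone genes HTA2 rose by 1.71. Genes of mitosis outside the lists, named after their values were seen, went both ways. The condensin subunit SMC2 rose by 1.57 and the spindle checkpoint kinase BUB1 by 1.31. The kinetochore protein CTF3 fell by 1.56, the spindle pole protein MPS2 by 1.47 and the septin CDC11 by 1.03. In bulk RNA, fewer cells of a kind and less RNA per cell cannot be told apart.

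In the main fit the calls among ribosomal protein genes lay mostly in the small subunit, though the median changes of both subunits were close. Of its 52 genes 13 were called higher (25%, against 3.49% of all genes) and 0 lower, with a median change of 0.83, and 49 of the 52 had a positive change. In the large subunit 3 of 75 were called, near the 3.49% of all genes, with a median of 0.73 and 71 positive. Over the arrays of day 10 the median level of the small subunit ran from -1.34 to -0.66, and over those of day 17 from -0.23 to -0.14. Log-phase cells stood at 1.13 and stationary cells at -0.19.

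RPS9B (YBR189W), a protein of the small subunit, read -1.46, -2.75 and -2.65 at day 10 and -0.34, -0.37 and -0.32 at day 17. Its rise of 1.94 ± 0.58 (SE), or 3.85-fold, had limma adjusted p = 0.043. RPS17B, RPS7A and RPS0A rose by 1.73, 1.65 and 1.60, and RPL21B, RPL16A and RPL3 of the large subunit by 1.54, 1.45 and 1.20. RPL22A and RPL2A differed by 1.60 and 1.56 without a call. Most ribosomal proteins of yeast come as near-identical gene pairs, which probes may not separate. Both subunits had 0 calls without day 10 replicate 2, without day 17 replicate 3 and after quantile normalization. With the absence of the dap spike, a control RNA, as a term in the model, the small subunit had 7 calls and the large 5. In a fit on the 6 arrays they had 21 and 13. Leaving out each array in turn gave 0 to 19 and 0 to 23, so the contrast between the subunits depends on the setting.

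The genes that build ribosomes did not rise with their proteins. Of 90 ribosome biogenesis genes 0 were higher and 1 lower, with a median of -0.28, and 65 of the 90 had a negative change. Among 71 proteins of the mitochondrial ribosome 0 were called, with a median of -0.31. Among 37 translation factors ANB1 was higher and DED1, an RNA helicase of initiation, fell by 1.87, with day 10 values of 0.52, 1.00 and -0.30 and day 17 values of 0.00, -1.89 and -2.49. The DED1 arrays of the days overlapped.

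**Figure D4:**
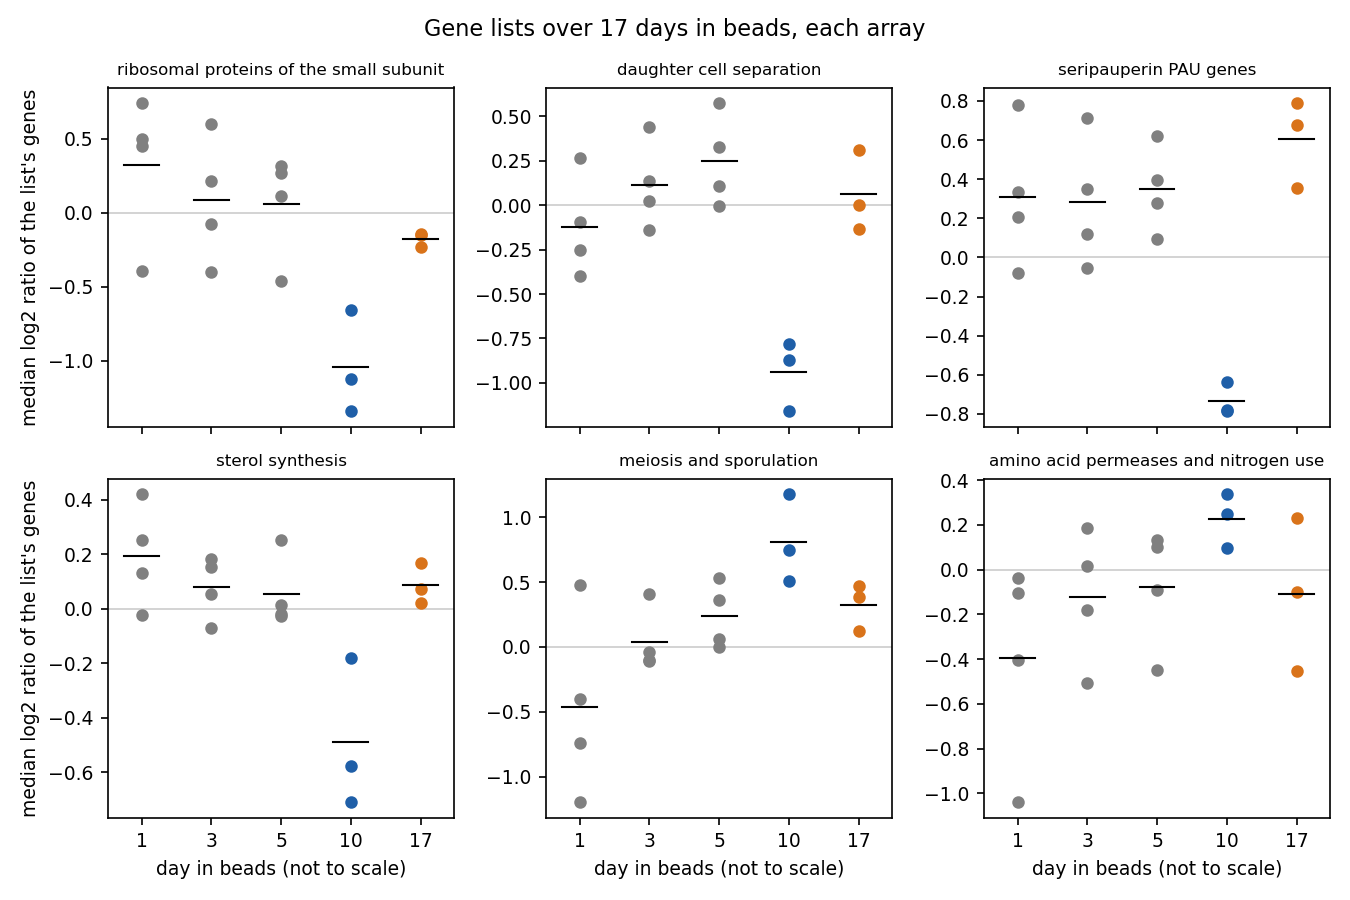
Median log2 ratio (y axis) of the genes of 6 lists on each array, by day in beads (x axis, not to scale), with day 10 in blue, day 17 in orange, days 1, 3 and 5 in grey and the mean of each day as a line. Day 10 lies below the other days in the ribosomal, separation, PAU and sterol lists; in the meiosis list its arrays run from 0.51 to 1.18, and in the permease list the days overlap.

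Lipid and acetyl-CoA genes were among the calls with the lowest p. ACS2 (YLR153C) encodes the acetyl-CoA synthetase used on glucose. It read -1.37, -2.63 and -3.04 at day 10 and 0.05, -0.45 and -0.31 at day 17, a rise of 2.11 ± 0.34 (SE) with limma adjusted p = 0.0034. Of 36 sterol genes 6 were higher (16.7%, against 3.49% of all genes) and 0 lower, with a median change of 0.59.

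ERG2, the sterol isomerase of late ergosterol synthesis, went from -1.11, -1.91 and -1.88 to 0.33, -0.01 and 0.05, a rise of 1.76 with limma adjusted p = 0.0034. ERG13, the HMG-CoA synthase, rose by 1.59, ERG26 by 1.25 and ERG20, the farnesyl pyrophosphate synthase, by 1.01. TGL1, a sterol ester hydrolase, rose by 1.32 and OSH6, a lipid transfer protein, by 1.20. ATF2, which acetylates sterols, differed by -1.50 without a call. The fatty acid enzyme PHS1 rose by 1.56, and ALE1 and EPT1, of phospholipid synthesis, by 1.36 and 1.18. Sphingolipid genes gave 2 calls of 29 (6.9% higher), CSH1 at 1.20 and DPL1, the lyase of sphingoid base phosphates, at 1.01.

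Without day 10 replicate 2 the sterol list held 1 call, as it did without day 17 replicate 3 and after quantile normalization.

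A few amino acid enzymes were higher and a few permeases lower at day 17. Of 80 synthesis genes 5 were higher (6.25%, against 3.49% of all genes) and 0 lower: PHA2 and TRP4 of aromatic amino acids by 1.65 and 1.55, LYS21 of lysine by 1.54, LEU2 of leucine by 1.46 and ARO1 of the shikimate pathway by 1.43. LYS9 and SHM2 differed by 1.70 and 1.55 without a call. Of 49 permease and nitrogen genes 3 were lower (6.12%, against 1.58%) and 1 higher, with a median of -0.36 and 16 positive changes.

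DIP5 (YPL265W), the permease for glutamate and aspartate, read 0.95, 2.27 and 2.09 at day 10 and 0.78, -0.72 and -2.04 at day 17. It fell by 2.43 ± 0.68 (SE) with limma adjusted p = 0.035. The day 17 arrays were spread more widely than those of day 10, and replicate 1 lay just under the lowest day 10 array. BAP3 (YDR046C), a permease for branched-chain amino acids, fell from 1.40, 2.19 and 2.15 to 0.12, -0.10 and -0.31, by 2.01 with limma adjusted p = 0.037. PTR2 (YKR093W), the peptide transporter, went from 0.66, 1.46 and 0.77 to 0.48, -0.74 and -2.62, and dropped by 1.92 with limma adjusted p = 0.049. Its lowest array, like that of DIP5, was day 17 replicate 3.

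The proline permease PUT4 and the glutamine permease GNP1 differed by -2.25 and -2.11, with limma adjusted p = 0.13 and 0.095. GAP1, the general permease, differed by -1.39 without a call. The 1 gene of the list that rose was UGA1, the transaminase of GABA breakdown, by 1.52, and GAD1, the glutamate decarboxylase that makes GABA, rose by 1.40. All 3 calls lower were lost without day 10 replicate 2, without day 17 replicate 3, after quantile normalization, on the 18 arrays of days 1 to 17 and with the dap term. Sulfur genes leaned the same way with 0 of 39 called, a median of -0.50 and 32 negative.

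IME1 (YJR094C) had the lowest p of all 5445 genes. The master regulator of meiosis read 1.84, 3.06 and 3.01 on the day 10 arrays and 0.74, 0.22 and 0.17 on those of day 17. It fell by 2.26 ± 0.27 (SE), and day 10 was 4.79-fold above day 17, with limma adjusted p = 0.00024. Its means at days 1, 3 and 5 were -0.26, -0.16 and -0.11, in log phase -0.22, in stationary phase 0.42 and in the chemostat -0.18. The day 0 mean, of 2 arrays, was 2.52, close to the day 10 mean of 2.64, so that day 10 was high among the bead days but not in the whole series.

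Among 64 meiosis and sporulation genes 6 were lower (9.38%, against 1.58% of all genes) and 1 higher, with a median change of -0.42. SPO20 (YMR017W), a SNARE of the spore membrane, read 2.07, 2.90 and 3.17 and then -0.57, 0.58 and -0.03. It fell by 2.72 ± 0.62 (SE), with limma adjusted p = 0.019. MND1 (YGL183C), of meiotic recombination, went from 1.44, 2.74 and 2.76 to -0.02, 0.44 and -0.12 and fell by 2.21, with limma adjusted p = 0.026. In these genes replicate 1 was the lowest of the day 10 arrays. The days were apart, but both belong to the largest falls, which were picked among genes with arrays apart.

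SPS4, the meiotic kinase IME2 and SPO16 fell by 1.21, 1.18 and 1.09. SMK1, a kinase of spore wall assembly, differed by -2.06 without a call at limma adjusted p = 0.11. MPC54, a protein of the meiotic spindle pole, rose by 1.53, against the direction of the others. Of the 8 markers of sporulating diploids, which this haploid strain should lack, SPS4 was the 1 called, while 0 of 5 alpha-cell, 0 of 7 a-cell and 0 of 6 growing-cell markers were called. Since the ratio holds no absolute level, these markers show differences between arrays and cannot show whether a cell type was present. The list's count of lower genes was 1 in each of the fits without day 10 replicate 2, without day 17 replicate 3 and after quantile normalization.

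**Figure D5:**
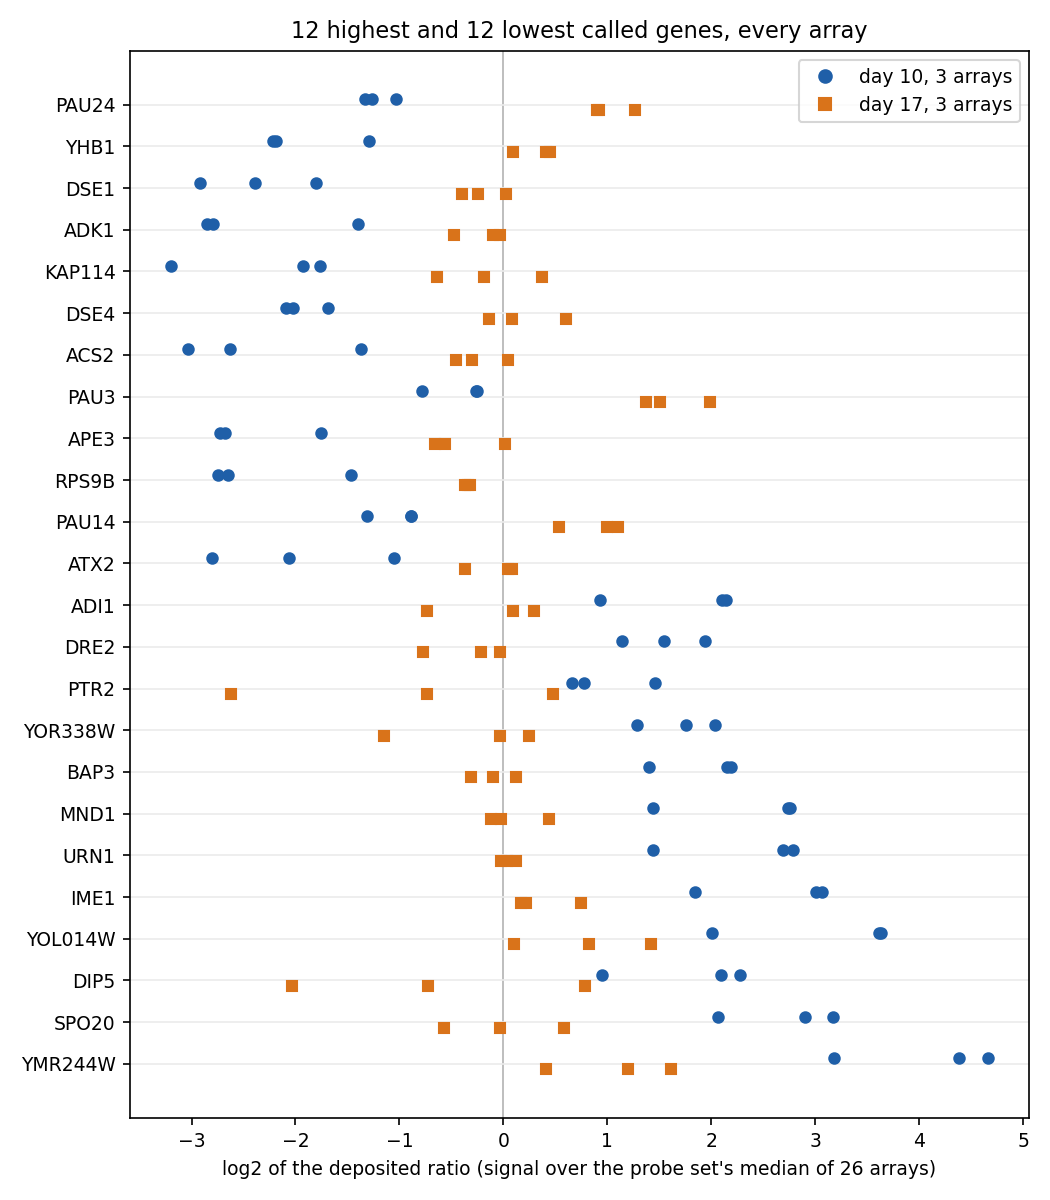
Log2 of the deposited ratio (x axis) on each of the 3 arrays of day 10 (blue circles) and of day 17 (orange squares) for the 12 called genes with the largest rise and the 12 with the largest fall whose arrays do not overlap (y axis, ordered by change). The rising genes sit below 0 at day 10 on every array; most falling genes sit above 1 at day 10 and near 0 at day 17.

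The remaining genes with the largest rise serve various functions. YHB1 (YGR234W), the flavohemoglobin that removes nitric oxide, read -1.30, -2.22 and -2.18 at day 10 and 0.41, 0.09 and 0.45 at day 17, a rise of 2.22 with limma adjusted p = 0.011. ADK1 (YDR226W), the adenylate kinase, went from -1.40, -2.80 and -2.85 to -0.03, -0.48 and -0.10, a rise of 2.15 with limma adjusted p = 0.030. KAP114 (YGL241W), an importin, stood at -1.77, -3.20 and -1.93 and then at -0.64, -0.19 and 0.37, likewise 2.15 apart with limma adjusted p = 0.016. In all of them day 10 lay well under the other bead days.

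APE3 (YBR286W), a vacuolar aminopeptidase, rose by 1.99 from -1.76, -2.68 and -2.73 to -0.56, -0.66 and 0.02. ATX2 (YOR079C), a Golgi manganese transporter, rose by 1.89 from -1.05, -2.81 and -2.06 to 0.09, -0.37 and 0.04. Both had limma adjusted p = 0.0053 and 0.019, in this order. Their arrays were apart, which was a condition for naming them.

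Of the genes with the largest fall, 3 are known by systematic names alone. YMR244W read 3.18, 4.66 and 4.38 at day 10 and 1.62, 1.19 and 0.41 at day 17, and fell by 3.00 ± 0.83 (SE), the most of any called gene, with limma adjusted p = 0.033. YOL014W read 2.00, 3.61 and 3.63 and then 1.42, 0.82 and 0.10, and fell by 2.30 with limma adjusted p = 0.037. YOR338W read 1.28, 2.03 and 1.75 and then 0.25, -0.03 and -1.15, and fell by 2.00 with limma adjusted p = 0.016. Both YMR244W and YOL014W stayed above the middle of the series at day 17 on every array.

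URN1 (YPR152C), a protein linked to pre-mRNA splicing, fell by 2.26 from 1.44, 2.78 and 2.69 to 0.03, 0.12 and -0.02. DRE2 (YKR071C), of cytosolic iron-sulfur cluster assembly, fell by 1.88 from 1.14, 1.94 and 1.54 to -0.03, -0.22 and -0.77. ADI1 (YMR009W), of the methionine salvage pathway, fell by 1.84 from 0.93, 2.10 and 2.14 to 0.29, 0.09 and -0.74. The limma adjusted p was 0.016, 0.011 and 0.032. The arrays of the days were apart in each, which was a condition for naming these genes.

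Smaller groups split or were thin. The siderophore transporters ENB1 and ARN2 fell by 1.58 and 1.48, 2 of 51 iron and copper genes (3.92%, against 1.58% of all genes). The iron oxidase FET3 differed by -1.12 without a call. The drug and acid exporters PDR12 and FLR1 fell by 1.67 and 1.03, 2 of 29 drug resistance genes (6.9%, against 1.58%). Of 48 genes of oxidative stress defence 2 were higher (4.17%, against 3.49%) and 2 lower (4.17%, against 1.58%). GND1, of the pentose phosphate pathway, rose by 1.82 and the peroxiredoxin TSA2 by 1.08. GTO3, a glutathione transferase, fell by 1.37, and FLR1 is counted again here. Of 50 targets of the stress factors Msn2 and Msn4, 3 were higher (6%, against 3.49% of all genes). These were UGA1, GAD1 and the glycogen phosphorylase GPH1, the last by 1.44. DAK1, a dihydroxyacetone kinase, rose by 1.23. With ACS2 it made up the 2 calls among 27 genes of ethanol, acetate and glycerol formation (7.41%). In cofactor synthesis 3 of 38 genes were higher (7.89%, against 3.49%). BNA6 and BNA4, of NAD, rose by 1.70 and 1.20 and THI80, of thiamine, by 1.21.

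No call was made among the 38 single genes listed for carbon use, stress, ageing and nutrient uptake, of which 3 had an unadjusted limma p under 0.05. Actin (ACT1) differed by 0.05, the heat shock proteins HSP12, HSP26 and HSP104 by 0.08, -0.07 and 0.00, and SIR2, the histone deacetylase of silencing, by -0.16. The hexose transporters HXT1, HXT2 and HXT3 differed by -0.37, -0.84 and 0.09. Not all of these genes were flat: CYC1, SUL1 and RSB1 differed by -1.53, -1.41 and -1.27, with the arrays of the days apart. Their limma adjusted p was 0.42, 0.29 and 0.12. On the other side CLB2 and SOD2 differed by 0.76 and 0.71. Heat shock, proteasome, autophagy, quiescence, TCA cycle, respiratory chain and hexose transport lists also held 0 calls, with medians from -0.26 to 0.33.

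The earlier change in beads, from day 1 to day 5, shares no array with the later one. Over the 5445 genes the changes had a Pearson correlation of -0.54 across genes, which are not independent replicates. Of the 190 genes higher at day 17, 160 had fallen from day 1 to day 5 by their mean values, and 78 of the 86 lower genes had a positive early difference, while 48.4% of all genes had a negative one. Against the difference between stationary and log phase the correlation was -0.40. By mean, 163 of the 190 were lower in stationary phase, against 49% of all genes, and 62 of the 86 were higher. Against the difference between chemostat and log phase the correlation was -0.18. The changes themselves were compared in the same limma fit. The later change differed from the earlier in 798 genes (14.7%), being more positive in 449 (8.25%) and more negative in 349 (6.41%). Without day 10 replicate 2 that count was 64, without day 17 replicate 3 it was 161 and without day 1 replicate 4 it was 1465.

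Control probes differed between arrays of the same day. The dap spike, a bacterial RNA added in preparation, was nearly absent on day 10 replicate 3 and on day 17 replicates 2 and 3, with values from -5.20 to -4.94, and present on the other 3. Between the arrays without it, 1 of day 10 and 2 of day 17, 3 genes were called, and 0 between those with it, 2 of day 10 and 1 of day 17. Each of these fits has a day of 1 array, whose spread is borrowed from the other groups, so the counts say little. Of the 276 genes, chosen for such a change on these arrays, 256 and 192 kept a difference of at least 2-fold in these fits. With the absence of the spike as a term in the model 203 genes were called. Of the 276 genes 166 kept their call there, and of the 88 called named genes 64 did. The 3' minus 5' signal of 8 control genes, a sign of RNA integrity, averaged 0.10 at day 10 and 0.24 at day 17, with arrays from -0.02 to 0.19 and from 0.17 to 0.34. The part of these differences in the calls was not tested beyond that.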

How the data were processed

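The deposited values are linear ratios, made with RMA per the submitters' processing notes, which as used here name no version. They lie between 0.0102 and 158.7, and medians of single probe sets across the 26 arrays between 0.9905 and 1.047, so absolute levels are lost. Log2 was taken of the deposited ratio. Of 10928 probe sets, 5498 belonged to exactly 1 S. cerevisiae gene, standing for 5449 genes; for 47 genes the probe set with the highest mean ratio was used, and 4 genes with missing values (SPG1, SPS100, NCA3 and DAN1) were left out. Coordinates are left out because the build is not given in the sources used here.

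Means of 9 groups were fitted to 26 arrays with limma 3.58.1 in R 4.3.3 (21.02 degrees of freedom), the spread of a gene being shared by all groups. The groups differ in spread: the median SD was 0.24 at day 10 and 0.25 at day 17. It was 0.48, 0.34 and 0.39 at days 1, 3 and 5, and 0.09 to 0.17 in the groups of 2 arrays. Arrays give no counts; their number limits the precision, and an exact permutation test of 3 against 3 arrays cannot go below p = 0.1. The members and the 53 gene lists were chosen with earlier results of these data known. Named genes are the 12 highest and 12 lowest calls whose arrays do not overlap, all called members of lists with at least 2 calls with the 4 largest changes of each, and 38 single genes. Alternatives changed the normalization, probe sets, prior, weights, arrays fitted, replicate block and fold minimum, and left out each array in turn, where the other groups supply the spread. In simulated data (10 simulations, 5445 genes, 200 changed between day 10 and day 17) 83.4% of log2 changes of 1.5 and 95.0% of changes of 2 were recovered, with 0.2 and 0.7 false calls on average. The simulated arrays were independent, which the real ones may not be. Promoter motifs were not used here. Python 3.11.15 with matplotlib 3.10.9 drew the figures.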

Additional observations from a re-analysis of the deposited data

Results flagged for a closer look

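The change from day 10 to day 17 differed from that between day 1 and day 5 in 798 genes by the test of the difference itself. Among the 24 leading genes it did so in 22, which were chosen for a large later change. The later change minus the earlier one was -5.63 for YMR244W, -4.98 for YOL014W, -4.74 for BAP3, -3.71 for PTR2, -3.62 for MND1, -3.33 for SPO20, -3.26 for YOR338W and -3.11 for DIP5. In YMR244W, YOL014W and BAP3 the earlier change was itself a rise, of 2.63, 2.68 and 2.73. URN1 stood at -3.07, ADI1 at -2.90, DRE2 at -2.56 and IME1 at -2.42; the early change of IME1 was 0.15. Among the rising genes the difference was 2.80 for KAP114, 2.78 for ACS2, 2.68 for ADK1, 2.60 for RPS9B and 2.50 for APE3, and it was 2.29 for PAU3, 2.23 for PAU24, 1.95 for ATX2, 1.93 for PAU14 and 1.76 for YHB1.

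Single arrays stood far from the other 3 of their day in 4 of the 72 groups of 4 arrays examined by Dixon's test, where chance gives about 1 in 20. These were APE3 on day 1 replicate 4 at -1.23, DSE1 on day 3 replicate 1 at 1.45, PAU3 on day 3 replicate 4 at 1.36 and PTR2 on day 5 replicate 1 at 0.811. None of them is an array of day 10 or 17, whose groups of 3 were too small for this test.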

How the results depend on the processing

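No called named gene turned its direction under any setting run. Where the arrays of the days did not overlap, leaving out arrays could not turn it. The counts over both directions, higher and lower were 276, 190 and 86, with 88 named genes and 87 list genes called. They depend on which arrays enter and on the scaling. They were 28, 19 and 9 after quantile normalization (19 named, 18 of lists), 31, 23 and 8 on the 18 arrays of days 1 to 17 (19 named, 19 of lists), 504, 286 and 218 on the 6 arrays (189 of lists) and 517, 311 and 206 with a variance weight for each group (182 of lists). With no fold minimum 461 genes passed. Shifting the arrays to 1 median, averaging probe sets, leaving out ambiguous probe sets and a trended, robust prior gave 259 to 282. Replicate numbers did not pair the days, since deviations of equal numbers correlated at 0.211, -0.142 and 0.217, and unequal ones from -0.558 to 0.594, the highest being day 10 replicate 3 with day 17 replicate 2, both without the dap spike, then 0.429 for day 10 replicate 2 with day 17 replicate 1, both with it; a replicate block gave 277 on 26 arrays and 565, 308 and 257 on the 6 arrays (213 of lists). Leaving out each array of days 10 and 17 in turn gave 8 to 523 calls, 6 to 362 higher, 1 to 161 lower, 6 to 88 named and 7 to 169 of lists. The same with group weights, added after seeing the data, gave 108 to 828, 77 to 505 and 31 to 323. The later minus earlier change had 317 calls on 18 arrays, 832 with the block and 64 to 1465 without 1 array. Also added after seeing the data, the arrays without the dap spike gave 3, 1 and 2 (2 named, 2 of lists), those with it 0 in each, and its absence as a term 203. The cause of these moves was not tested. Dim probe sets could not be filtered on ratios.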

Other observations

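Of the 276 called genes, 189 belong to none of the lists, 122 of them higher and 67 lower at day 17. Some share a complex or family. The families named here were picked after the values had been seen and are given whole, with no test. Over all genes, 3.49% were called higher and 1.58% lower. Of 4 signal peptidase subunits, which trim proteins entering the endoplasmic reticulum, SPC3 and SEC11 rose by 1.55 and 1.29, and SPC2 and SPC1 stood at 1.17 and 0.72 without a call. Of 6 proteins of the signal recognition particle, SRP72 and SEC65 rose by 1.32 and 1.14, while SRP14 differed by -0.66. Of 20 cytosolic tRNA synthetases 3 were higher, SES1 by 1.74, YDR341C by 1.52 and GRS1 by 1.46, and the median was 0.66. Of 10 measured subunits of TRAPP, a vesicle tether of the Golgi, TRS65, TRS85 and TRS130 rose by 1.51, 1.26 and 1.02.

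Of 8 YAP transcription factors, 3 were lower at day 17. CIN5 read 0.78, 1.77 and 1.49 at day 10 and -0.41, -0.32 and -0.57 at day 17, and fell by 1.78. YAP6 fell by 1.63 and YAP5 by 1.45, whereas YAP1, the main factor of the oxidative response, differed by -0.21 and CAD1 by -0.03.

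Open reading frames whose systematic name carries a letter suffix, most of them short and added late to the annotation, were lower in 9 of 249 cases (3.61%), against 1.48% of the other genes. They were higher in 5 of the 249, against 185 of the 5196 other genes, and no test was made.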
